A study of Mus musculus with 10 samples.

Results

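The 8 bulk RNA-seq libraries described here, of 32 in the bulk part of the series, came from kidneys of mice labelled Pax8creERT2;Ihhfl/fl and treated with tamoxifen, called here the labelled Ihh-deleted arm. The 4 injured libraries came from kidneys whose artery had been tied for 15 min and which were taken 2 weeks later. The 4 contralateral libraries came from the opposite kidneys of mice of the same strain and treatment, and all mice were 8 weeks old. The members were chosen by their labels alone. Pax8 drives the Cre recombinase in tubule epithelium, so other kidney cells keep their Ihh alleles. The sources used here do not name the deleted exons. In 2 further arms Ihh was intact, each with 4 injured and 4 contralateral libraries of the same design: C57/BL6 mice given tamoxifen, which carry neither the Cre nor the floxed alleles (the wild-type arm), and Pax8creERT2;Ihhfl/fl mice labelled as vehicle, whose injured group is said to have had no tamoxifen and whose contralateral label names none (the floxed arm without tamoxifen). The labels do not say that the 4 libraries of a group came from separate mice, so p-values measure only the spread between these libraries.

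Indian hedgehog (Ihh) is a secreted ligand that binds the receptor Ptch1. Binding releases the membrane protein Smo and lets the Gli transcription factors switch on targets that include Gli1, Ptch1 and Hhip. In the kidney the responding cells are chiefly fibroblasts and pericytes, the cells that lay down scar matrix after injury. Tubules starved of blood lose transport and mitochondrial genes, switch on injury markers such as Lcn2 and Havcr1, and release cytokines that act through TNF receptors and NF-kB. The comparison addresses which of these changes are present after ischaemia when tubular Ihh is targeted.

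Ihh itself, on chromosome 1, had 4.58, 6.09, 5.09 and 4.86 CPM in injured and 4.34, 8.68, 3.44 and 17.2 CPM in contralateral libraries (CPM scales each count to its library total). Contralateral library 4, though labelled as deleted, stood above the other 7 libraries and above every library of both intact arms. The groups overlapped, with a mean difference of -3.26 CPM (exact two-sided permutation p = 0.429, where 4 against 4 libraries can give no less than 0.0286), and the difference was -0.334 CPM without contralateral library 4. In the wild-type arm Ihh had 5.98 to 11.8 CPM in injured and 8.32 to 14.3 CPM in contralateral kidneys. In the floxed arm without tamoxifen it had 6.88 to 15.4 CPM in injured and 8.05 to 12.9 CPM in contralateral kidneys. Most Ihh counts of the labelled Ihh-deleted arm fell on the protein-coding transcript Ihh-201, with 97.3 to 116 counts in injured and 68.2 to 355 counts in contralateral libraries. Ihh was therefore still counted in every library labelled as deleted, and a count over the whole gene does not show how much of it lacks the deleted part.

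Injury changed 6047 of 15604 genes tested (38.8%), with 3304 higher (21.2%) and 2743 lower (17.6%) in injured than in contralateral kidneys at an adjusted p under 0.05 (edgeR's quasi-likelihood test, Benjamini-Hochberg over all genes tested). The median log2 fold change over all genes was 0.02. Library totals were 22381785 to 26801055 counts in injured and 20955952 to 24247637 counts in contralateral kidneys. All 4 injured libraries lay above all 4 contralateral ones for 26% of the genes tested and below them for 10.2%, so that 36.3% had no overlap between groups. The injured libraries did not respond equally. Injured library 4 lay farthest from the contralateral mean for 2323 of the 3304 risen genes (70.3%) and 1431 of the 2743 fallen ones (52.2%), and injured library 3 lay nearest to it for 2882 (87.2%) and 1517 (55.3%). Without injured library 1 the test called 3963 genes, and without contralateral library 2 it called 3990. Proximal tubule genes summed to 22272 to 45098 CPM in injured and 50602 to 54126 CPM in contralateral libraries, so every library carried the kidney profile its label names. In tissue RNA, fewer cells of a type and less RNA per cell cannot be told apart.

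**Figure D1:**
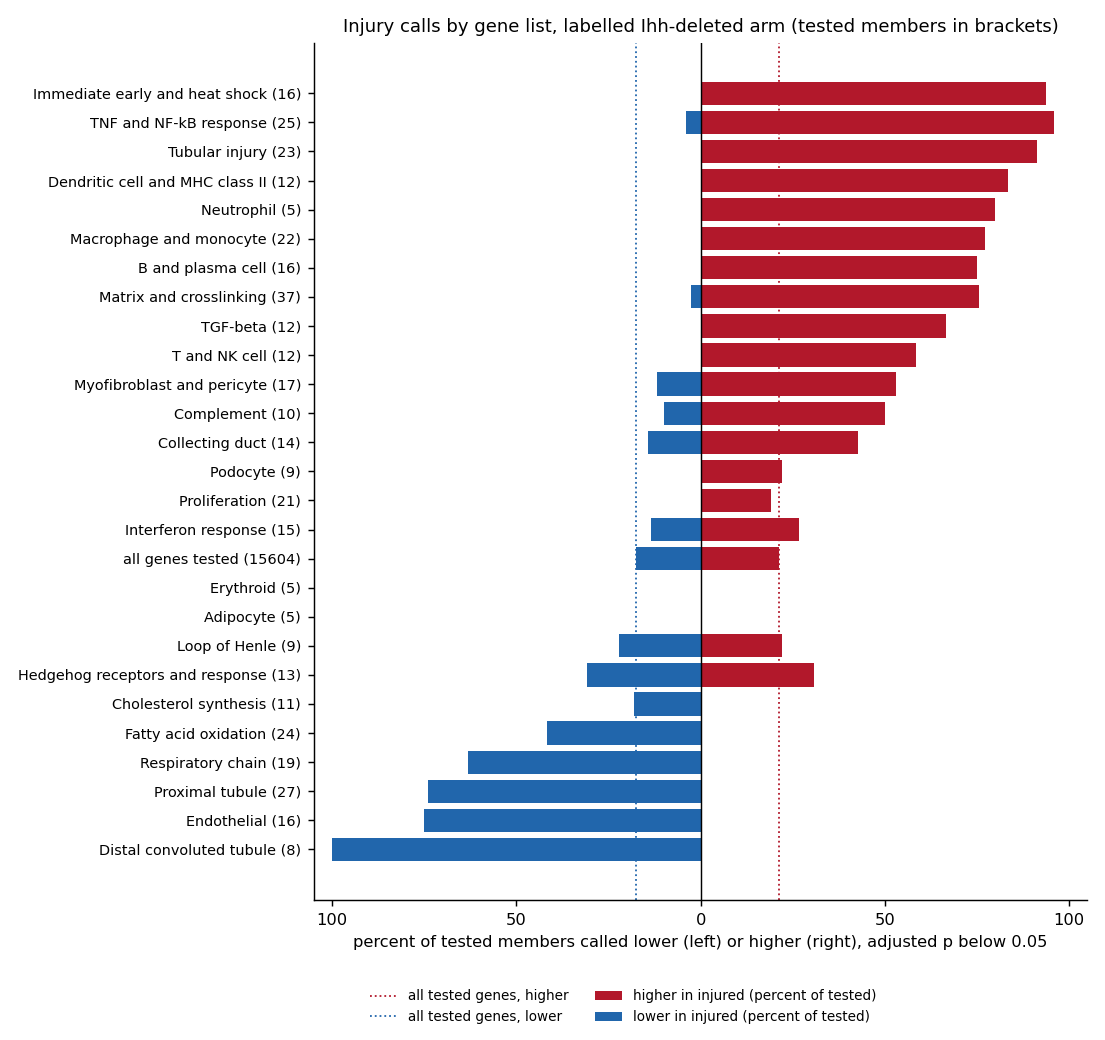
Share of tested members of each gene list called higher (right, red) or lower (left, blue) in injured than in contralateral kidneys of the labelled Ihh-deleted arm, in percent. Dotted lines mark all genes tested, at 21.2% higher and 17.6% lower; 24 of 25 TNF and NF-kB genes rose and 8 of 8 distal convoluted tubule genes fell.

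TNF and NF-kB genes rose almost without exception: 24 of 25 tested members rose and 1 fell, against 21.2% and 17.6% of all genes, with a median log2 fold change of 2.02. These shares are the background for every injury count of a list below. Tnf, the cytokine that opens the cascade, had 1.57, 0.895, 0.763 and 2.88 CPM in injured and 0.165, 0.0855, 0.143 and 0.355 CPM in contralateral libraries (log2 fold change 2.81, SE 0.54, adjusted p = 0.00662). Every injured library lay above every contralateral one, although both groups were low. The cytokines Il1b and Lif rose by 3.14 and 2.94 (log2). Of the receptors, the leukocyte-rich Tnfrsf1b rose by 2.02 and the broadly expressed Tnfrsf1a by 0.35. The NF-kB subunits Nfkb1, Nfkb2, Rel and Relb rose by 1.06, 1.91, 1.96 and 2.36, and the feedback inhibitors Nfkbia and Tnfaip3 by 1.90 and 2.45. The adhesion molecules Vcam1 and Icam1, which bind leukocytes, rose by 2.75 and 1.74. Tnfaip2 was the member that fell, by 0.37 on the log2 scale, and no member fell without injured library 1 or 2 or contralateral library 2 or 3, or with 24 libraries in the fit.

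Chemokines were among the members that rose. Cxcl2, which attracts neutrophils, had 3.88, 9.94, 1.02 and 10.2 CPM in injured and 0.165, 0.0428, 0.0478 and 0 CPM in contralateral libraries (log2 fold change 6.28, SE 0.93, adjusted p = 0.00314). Its paralog Cxcl1 had 30.4, 118, 3.05 and 73.7 CPM in injured and 2.19, 1.28, 0.669 and 3.15 CPM in contralateral libraries (log2 fold change 4.77, SE 0.97, adjusted p = 0.00832). Injured library 3 lay within the contralateral range for Cxcl1 and above it for Cxcl2. Cxcl10, which attracts T cells, had 19.4, 45.3, 3.77 and 78.3 CPM in injured and 1.45, 1.71, 2.15 and 1.46 CPM in contralateral libraries, with no overlap (log2 fold change 4.23, SE 0.78). Ccl2, an attractant of monocytes, had 8.12, 4.83, 2.76 and 13.6 CPM in injured and 0.578, 0.470, 0.191 and 0.355 CPM in contralateral libraries, again with no overlap (log2 fold change 3.97, SE 0.51). Cxcl5, Ccl20, Csf2 and Il6 were too low to be tested. Without any 1 of the 8 libraries 24 to 26 genes of the list rose. No member passed the test of a different injury change between this arm and the intact arms, though 6 had a smaller change without injured library 4. A larger change was called for 1 member without injured library 3 and for 1 against the wild-type arm alone.

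The promoters of 3 of these chemokines are shown because NF-kB dimers, for which the list is named, bind a short element, kappaB, near start sites. The windows are RefSeq promoters on GRCm38.p6, 250 bases before to 50 bases after the start, written 5′ to 3′ on the gene's strand. Capitals mark matches to the kappaB consensus (10 bases, both strands, overlapping matches joined). Cxcl1 lies at chr5:90890995-90891294 and Cxcl2 at chr5:90903649-90903948, both on the plus strand, and Cxcl10 at chr5:92348840-92349139 on the minus strand.
Cxcl1: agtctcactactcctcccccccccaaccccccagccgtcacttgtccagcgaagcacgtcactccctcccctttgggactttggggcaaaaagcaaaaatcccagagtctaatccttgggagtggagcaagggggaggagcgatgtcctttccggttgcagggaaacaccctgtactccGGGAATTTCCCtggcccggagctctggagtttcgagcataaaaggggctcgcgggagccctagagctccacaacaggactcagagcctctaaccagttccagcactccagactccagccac
Cxcl2: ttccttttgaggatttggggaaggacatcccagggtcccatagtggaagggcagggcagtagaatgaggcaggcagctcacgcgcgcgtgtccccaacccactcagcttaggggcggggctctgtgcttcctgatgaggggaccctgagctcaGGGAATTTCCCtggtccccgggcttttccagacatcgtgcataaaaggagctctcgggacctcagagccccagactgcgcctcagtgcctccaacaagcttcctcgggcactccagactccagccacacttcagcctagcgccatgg
Cxcl10: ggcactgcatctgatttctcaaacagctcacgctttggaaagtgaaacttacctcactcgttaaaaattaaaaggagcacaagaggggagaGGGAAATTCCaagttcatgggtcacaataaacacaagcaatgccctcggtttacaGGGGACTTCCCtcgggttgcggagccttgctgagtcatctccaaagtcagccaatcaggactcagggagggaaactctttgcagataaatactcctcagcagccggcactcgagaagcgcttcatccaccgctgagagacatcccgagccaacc
The capitals of Cxcl1 and Cxcl2 are the same letters, with the first base at position -71 in Cxcl1 and -97 in Cxcl2 relative to the start. Cxcl10 held separate matches that begin at positions -159 and -104. Of the 29 members of the list 21 had a window, and 14 of their 24 windows (58.3%) held a match, against 8.46% of all 32851 windows. The share was 46.2% of 13 windows for the early response list, 14.8% of 27 windows for the matrix list and 8.33% of 12 windows for the Hedgehog receptor and response list. The list was chosen as genes of TNF and NF-kB, so its share describes that choice and not these libraries. The windows shown all hold a match, and Ccl2 was not among the 12 genes of the list with one. A match describes these letters and is not a measured binding site.

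Injury markers of the tubule also rose. Of 23 tested members 21 rose and none fell, with a median log2 fold change of 1.74. Lcn2, a secreted marker of tubular damage, had 53.6, 29.5, 10.7 and 41.1 CPM in injured and 1.32, 1.11, 0.908 and 0.886 CPM in contralateral libraries (log2 fold change 4.79, SE 0.45, adjusted p = 0.000721). Injured library 3 was the lowest of the injured ones and still stood clear of the contralateral range. Havcr1, the phosphatidylserine receptor known as Kim-1, had 22.3, 9.45, 3.52 and 14.5 CPM in injured and 2.35, 2.31, 1.67 and 4.52 CPM in contralateral libraries (log2 fold change 2.0, SE 0.49, adjusted p = 0.0156). Here injured library 3 lay inside the contralateral range. Gabrp, a GABA receptor subunit, had 34.8, 17.1, 7.5 and 30.2 CPM in injured and 0.124, 0.0855, 0 and 0.0886 CPM in contralateral libraries (log2 fold change 7.90, SE 0.64), the steepest rise among protein-coding genes that passed the naming rule. The cytokeratins Krt19 and Krt20 rose by 4.12 and 4.73 (log2), and Sox9, a transcription factor of regenerating tubule cells, by 3.34. Itgb6 and Ccn1, with log2 fold changes of -0.67 and 0.08, did not pass the test. Sox4 and Anxa3 had smaller changes than in the intact arms (differences -0.78 and -1.08, log2), and the other tested members did not pass that test. Without injured library 4 the count with a smaller change was 4, and without injured library 2 or 3 or contralateral library 4 it was 1. Against the floxed arm alone it was 0.

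**Figure D2:**
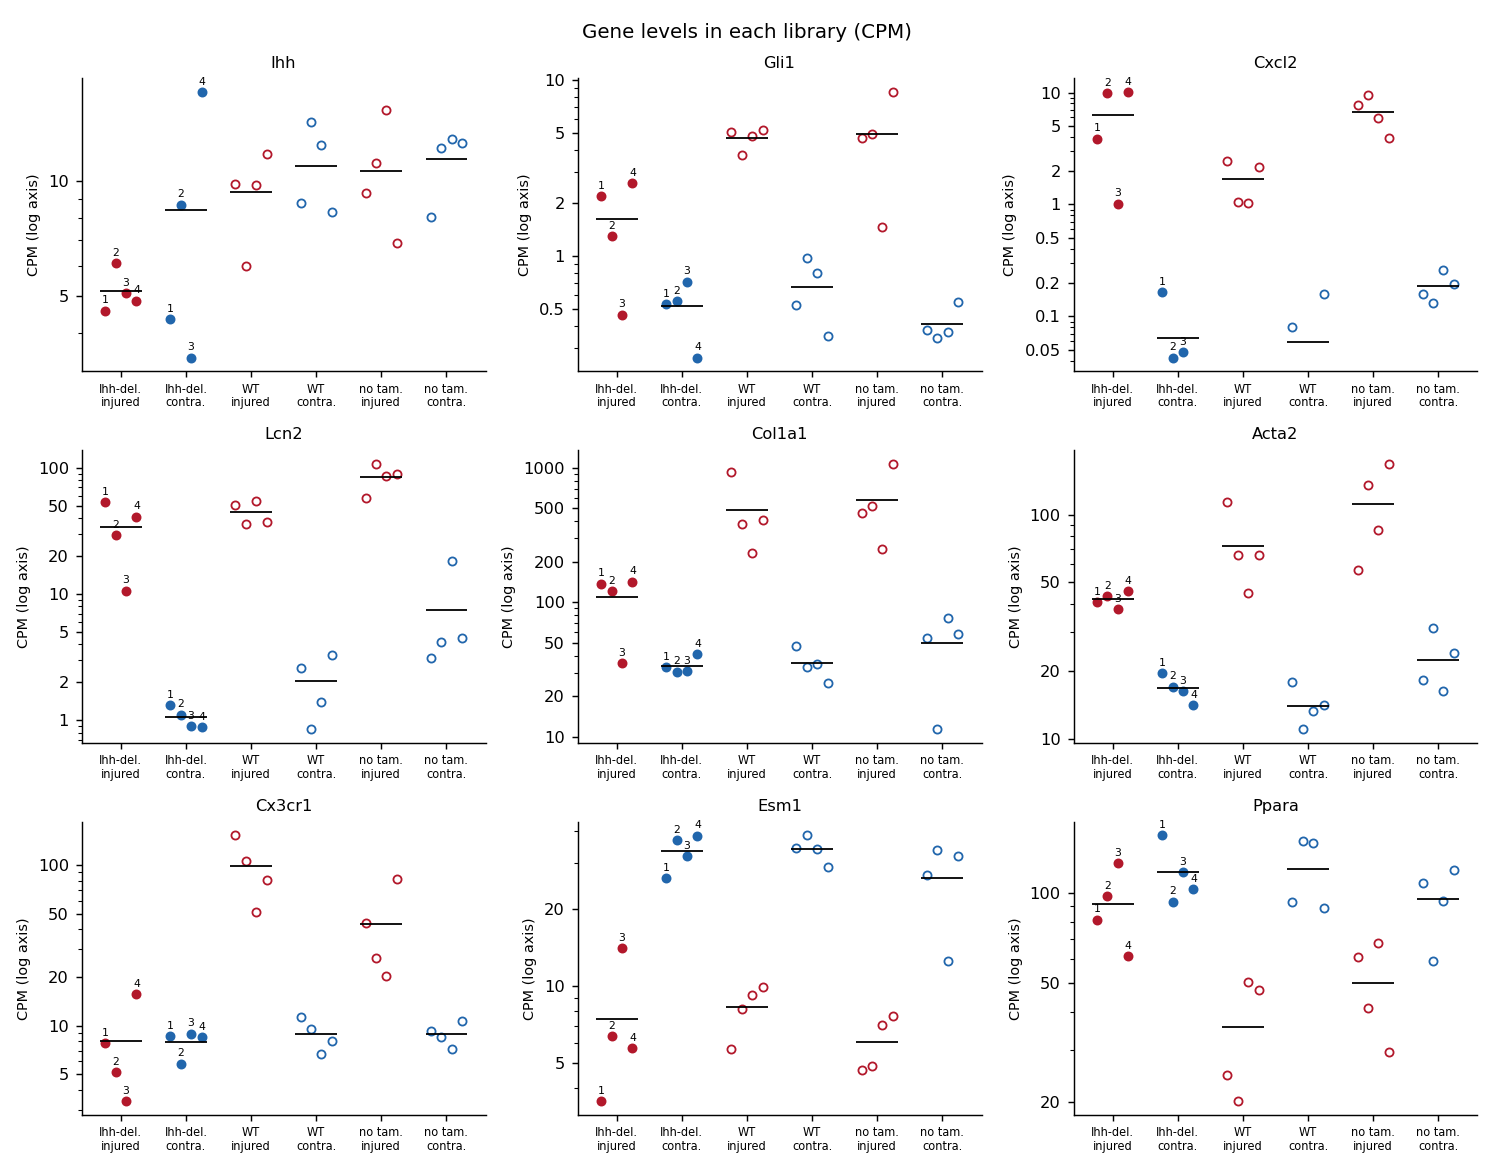
Levels of 9 genes in CPM (log axis) in each library: filled points are the labelled Ihh-deleted arm with library numbers, open points the wild-type arm (WT) and the floxed arm without tamoxifen (no tam.), red injured, blue contralateral (contra.), lines the group means. Libraries at 0 CPM are not drawn; Lcn2 and Cxcl2 were higher in all injured than in all contralateral libraries of this arm, and Cx3cr1 overlapped.

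Matrix genes rose in most cases, with a smaller median change than in the intact arms. Of 37 members 28 rose and 1 fell, with a median log2 fold change of 0.86, against 2.0 in the wild-type arm and 1.96 in the floxed arm without tamoxifen. Col1a1, a chain of the main scar collagen, had 138, 121, 35.5 and 143 CPM in injured and 32.8, 30.5, 30.8 and 41.2 CPM in contralateral libraries (log2 fold change 1.5, SE 0.34, adjusted p = 0.0116). Injured library 3 lay within the contralateral range. Col3a1, the partner fibrillar collagen, rose by 1.42 (log2), the matricellular protein Tnc by 2.26, the protease inhibitor Timp1 by 2.28 and the crosslinking enzyme Lox by 1.53. Col14a1 fell by 0.71 on the log2 scale. The test of the difference between arms found 19 matrix genes with a smaller value in this arm and none with a larger one, where 5.78% and 8.46% of all 16989 genes were called. These shares are the background for the difference counts of the other lists as well. For Col1a1 the difference was -1.74 (log2, SE 0.57, adjusted p = 0.0457). That call was lost without any 1 of 16 of the 24 libraries. The count of 19 became 2 without injured library 3, 5 without injured library 2, 9 without injured library 1, 7 without contralateral library 2 or 3 and 5 without contralateral library 4, and it was 23 without injured library 4. It was 6 against the wild-type arm alone and 5 against the floxed arm alone. With the spread taken from all 24 libraries of the 3 arms, 16 matrix genes rose.

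The contractile and mural cell genes were divided: 9 of 17 rose and 2 fell, against 21.2% and 17.6% of all genes. Acta2, the smooth muscle actin of myofibroblasts, had 40.7, 43.5, 38 and 45.5 CPM in injured and 19.6, 17.1, 16.3 and 14.1 CPM in contralateral libraries (log2 fold change 1.16, SE 0.11, adjusted p = 0.000809). These injured libraries were even, and none overlapped the contralateral range. Tagln, an actin-binding protein of contractile cells, rose by 1.65 (log2). The PDGF receptors of the same cells did not follow. Pdgfra had 60.4, 77.1, 47.0 and 94.5 CPM in injured and 61.5, 77.5, 64.6 and 70.4 CPM in contralateral libraries, with a log2 fold change of -0.15 that did not pass the test. Pdgfrb fell by 0.57 and the guanylate cyclase subunit Gucy1a1 by 0.69 on the log2 scale, where the log2 fold changes in the wild-type and the floxed arm were 1.22 and 0.81 for Pdgfrb and 1.65 and 0.92 for Gucy1a1. The differences between arms were -1.76 for Pdgfra, -1.60 for Pdgfrb and -1.99 for Gucy1a1 (log2; adjusted p = 0.0101, 0.0113 and 0.0101). In all, 7 of the 17 had a smaller value in this arm and none a larger one. The 7 smaller values became 4 without injured library 2 or 3 and 1 against the floxed arm alone. The 9 rises became 4 without contralateral library 4 and 5 without injured library 2 or contralateral library 1 or 3, and neither fall was called when all 24 libraries shared 1 estimate of the spread.

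Of 12 TGF-beta genes 8 rose and none fell. Ltbp2, of the latent TGF-beta binding protein family, rose by 3.80 (log2). The ligands Tgfb1, Tgfb2 and Tgfb3 rose by 0.68, 1.17 and 2.20. Inhba, an activin chain, had 5.61, 3.40, 2.25 and 5.46 CPM in injured and 0.661, 1.07, 1.34 and 0.931 CPM in contralateral libraries, with no overlap (log2 fold change 1.87, SE 0.33). Its change was smaller than in the intact arms, as were those of Tgfb2, Tgfbr2, Tgfbi and Ltbp1, 5 of the 12. That count was 1 without injured library 2 or 3 or contralateral library 4 and 2 without contralateral library 2 or 3. Against the wild-type arm alone it was 1 and against the floxed arm alone 2.

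Hedgehog genes changed in both directions. Of 13 tested receptor and response genes 4 rose and 4 fell, where 21.2% of all genes tested rose and 17.6% fell. Hhip and Foxf1 were too low to be tested. Gli1, the target most used as a readout of the pathway, had 2.19, 1.30, 0.466 and 2.58 CPM in injured and 0.537, 0.556, 0.717 and 0.266 CPM in contralateral libraries (log2 fold change 1.44, SE 0.50, adjusted p = 0.046). Injured library 3 lay within the contralateral range. The call was lost without any 1 of 7 of the 8 libraries (adjusted p = 0.0627 to 0.11), the exception being injured library 3. In the intact arms Gli1 had 3.72 to 5.17 CPM in injured and 0.353 to 0.970 CPM in contralateral wild-type kidneys, and 1.47 to 8.54 CPM in injured and 0.343 to 0.549 CPM in contralateral floxed kidneys without tamoxifen. Its log2 fold changes there were 2.38 and 3.09, and the difference of -1.30 (SE 0.56, adjusted p = 0.107) did not pass the test, although it did without injured library 3 of the floxed arm (adjusted p = 0.0424). Gli3 and the co-receptor Cdon rose by 0.93 and 0.92 (log2), less than in the intact arms (differences -1.20 and -0.81, adjusted p = 0.0236 and 0.0438). Boc, a co-receptor that did not pass the injury test, also differed between arms (-0.96). In all 4 of the 13 had a smaller value in this arm, a count that became 2 without injured library 3 or contralateral library 2 or 4, and 0 against the floxed arm alone. Gpr161, a negative regulator at the cilium, rose by 1.74. The list had 2 to 6 rises and 4 falls without any 1 of the libraries, with 2 rises without injured library 1, 2 or 4 or contralateral library 1, 2 or 3.

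The receptor Ptch1 had 65.4, 69.2, 66.0 and 73.6 CPM in injured and 67.3, 86.4, 78.6 and 80.2 CPM in contralateral libraries (log2 fold change -0.35, SE 0.09, adjusted p = 0.0161), with overlapping ranges. Smo, which carries the signal, Sufu, which holds Gli proteins back, and the co-receptor Gas1 fell by 0.38, 0.53 and 0.53 on the log2 scale. The other ligands were low. Shh had 0.0848 to 1.61 CPM in injured and 0.443 to 1.12 CPM in contralateral libraries, and Dhh 0.448 to 0.805 CPM in injured and 0.310 to 0.770 CPM in contralateral libraries. Neither passed the injury test, and Dhh differed from the intact arms by -1.5 (log2, adjusted p = 0.0429). That call was lost without injured library 1, 2 or 3 or contralateral library 1, 2 or 3, without any 1 of 8 libraries of the intact arms, with no filter on low counts, with the replicate block (adjusted p = 0.0597) and against either intact arm alone.

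Leukocyte genes rose, with wide differences between injured libraries. Of 22 macrophage and monocyte genes 17 rose and none fell, with a median log2 fold change of 1.80. The list summed to 603, 475, 266 and 1257 CPM in injured and 188, 163, 186 and 199 CPM in contralateral libraries. All injured sums lay above all contralateral ones, and all lay below those of injured wild-type kidneys (1716 to 3323 CPM), while they overlapped those of injured floxed kidneys without tamoxifen (869 to 2584 CPM). Lyz2, the lysozyme of myeloid cells, had 170.3, 139, 70.2 and 524 CPM in injured and 21.4, 21.1, 26.2 and 31.5 CPM in contralateral libraries (log2 fold change 2.96, SE 0.52), with no overlap. Gpnmb, a lysosomal protein of phagocytes, rose by 3.68 (log2) and the scavenger receptor Cd163 by 2.44.

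Cx3cr1, the fractalkine receptor of resident macrophages and patrolling monocytes, was 1 of the 5 genes of that list that did not pass the injury test. It had 7.79, 5.15, 3.39 and 15.8 CPM in injured and 8.68, 5.82, 8.94 and 8.51 CPM in contralateral libraries (log2 fold change -0.20, SE 0.39, adjusted p = 0.702). In the intact arms it had 51.4 to 153 CPM in injured and 6.71 to 11.4 CPM in contralateral wild-type kidneys, and 20.3 to 81.9 CPM in injured and 7.15 to 10.7 CPM in contralateral floxed kidneys without tamoxifen. Every injured library of the labelled Ihh-deleted arm lay below every injured library of both intact arms. The difference between arms was -2.61 (log2, SE 0.49, adjusted p = 0.00674), and it passed the test against each intact arm alone (-3.24 and -1.99, adjusted p = 0.00377 and 0.0467). Its ligand Cx3cl1 rose by 0.70 (log2) in this arm. Gpr34, Trem2, Ccr2, Siglec1, Mrc1 and C3ar1, all receptors of macrophages or monocytes, also had smaller changes here, so that 7 of the 22 had a smaller change and none a larger one. That count was 15 without injured library 4, 3 without injured library 2 or 3 and 2 without contralateral library 4, and against the floxed arm alone 1.

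Antigen presentation genes rose in 10 of 12 cases, among them the dendritic cell receptors Flt3 and Ccr7 (2.72 and 2.58, log2). That count was 3 without contralateral library 2 and 6 without contralateral library 3. Ccr7 was highest in injured library 4, and its call was lost without that library, without any 1 of the contralateral libraries and with the replicate block (adjusted p = 0.0579). Of 12 tested T and NK cell genes 7 rose, among them Cd4, with 2.85, 4.16, 2.59 and 20.9 CPM in injured and 0.454, 0.599, 1.15 and 0.665 CPM in contralateral libraries (log2 fold change 3.19, SE 0.72). Injured library 4 was the highest. Cd8a, Cd8b1, Nkg7, Klrb1c and Cxcr6 did not pass the test. Of 16 tested B and plasma cell genes 12 rose. Ighm, the heavy chain of IgM, had 16.3, 628, 279 and 6409.8 CPM in injured and 3.64, 19.7, 14.4 and 11 CPM in contralateral libraries (log2 fold change 6.99, SE 1.63, adjusted p = 0.0131). Injured library 4 was far above the others, and injured library 1 lay within the contralateral range. The B and plasma cell count was 7 without injured library 4 and 4 to 5 without any 1 of the contralateral libraries. Of 5 tested neutrophil genes 4 rose, with S100a9, a calcium-binding alarmin, at 0.895 to 2.72 CPM in injured and 0 to 0.454 CPM in contralateral libraries.

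**Figure D3:**
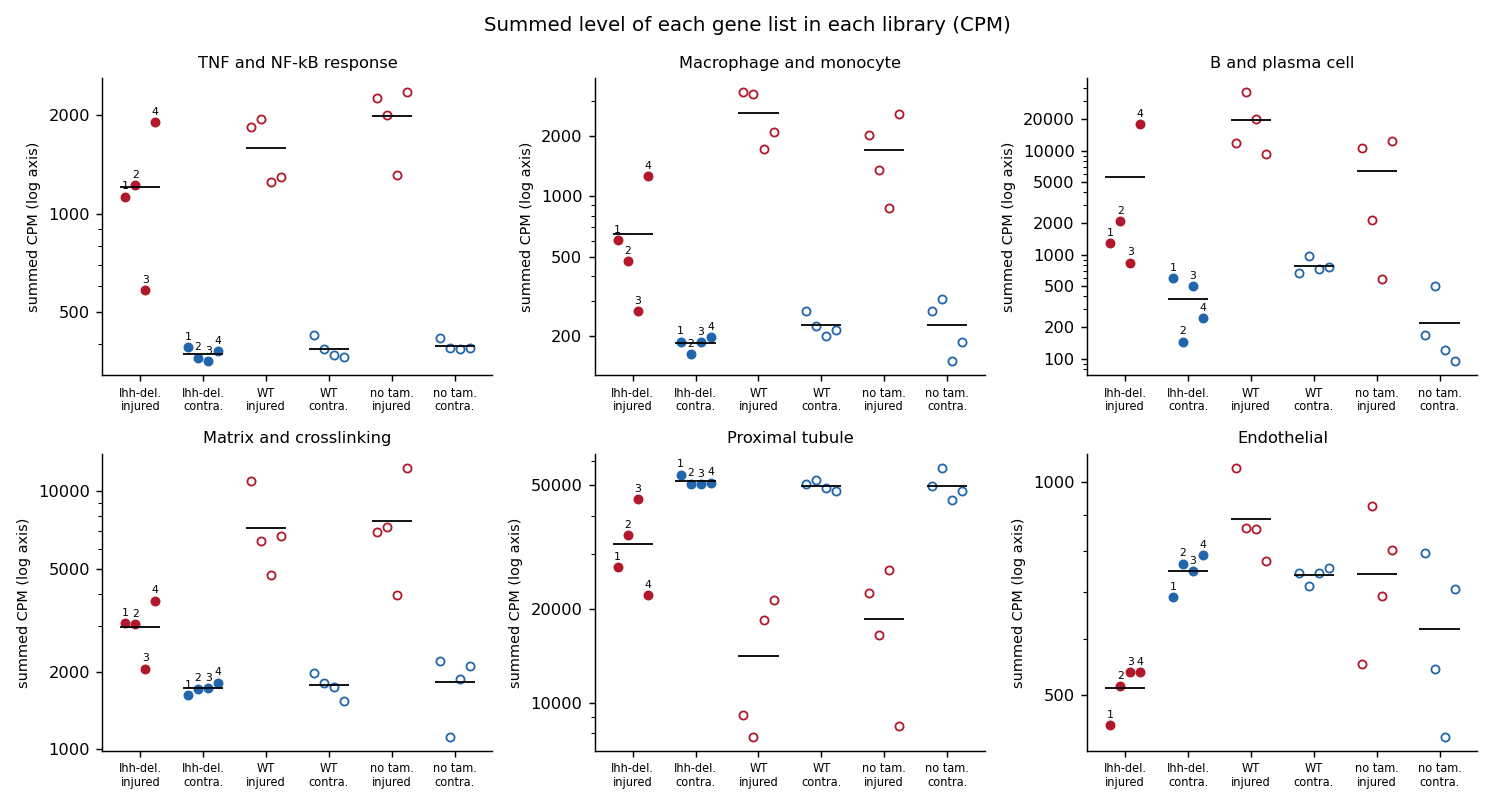
Summed level of 6 gene lists in CPM (log axis) in each library: filled points are the labelled Ihh-deleted arm with library numbers, open points the intact arms, red injured, blue contralateral, lines the group means. Injured library 3 lay nearest to the contralateral libraries of its arm in the TNF, macrophage, B and plasma cell, matrix and proximal tubule panels.

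Proximal tubule genes fell in 20 of 27 cases and none rose, with a median log2 fold change of -0.86, against -2.28 in the wild-type arm and -1.88 in the floxed arm without tamoxifen. They summed to 27315, 34715, 45098 and 22272 CPM in injured and 54126, 50667, 50602 and 51048 CPM in contralateral libraries. No injured library reached the contralateral range, and injured library 3 came closest. Slc6a19, the neutral amino acid transporter, had 238, 225, 367 and 203 CPM in injured and 778, 480.3, 621 and 592 CPM in contralateral libraries (log2 fold change -1.40, SE 0.25, adjusted p = 0.00542), without overlap. The phosphate transporter Slc34a1 fell by 1.06, the endocytic receptor Lrp2 by 0.85 and the organic anion transporter Slc22a8 by 1.26 on the log2 scale. Pck1, the key enzyme of gluconeogenesis, had 2368, 3180.2, 3050.3 and 1679 CPM in injured and 3374, 1582, 1496 and 1209 CPM in contralateral libraries and did not pass the test (log2 fold change 0.28). Its change was higher here than in the intact arms (difference 2.10, log2, adjusted p = 0.0161), as were those of Kap, Fbp1, Acy3 and Aadat, 5 of the 27. The 20 falls became 7 without injured library 1, 12 without injured library 2, 11 to 13 without any 1 of the contralateral libraries and 10 with all 24 libraries in 1 fit. The 5 differences between arms became 14 without injured library 4 and 2 without injured library 2 or 3 or contralateral library 2 or 4. They numbered 2 against the wild-type arm alone and 1 against the floxed arm alone.

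The fatty acid oxidation and respiratory chain lists moved the same way. Of 24 fatty acid oxidation genes 10 fell, and of 19 respiratory chain genes 12 fell, and none of either rose. Genes of the mitochondrial chromosome overlapped between groups, at 3.3, 3.2, 3.0 and 2.4% of counts in injured and 2.0, 2.9, 4.9 and 1.6% in contralateral libraries. Acaa1b, a thiolase of peroxisomes, had 135, 96.6, 142 and 74.5 CPM in injured and 356, 185, 195 and 249.5 CPM in contralateral libraries (log2 fold change -1.29, SE 0.28), without overlap. Ppara, the transcription factor that governs fatty acid oxidation, had 81.4, 97.5, 126 and 61.4 CPM in injured and 155, 93.4, 117 and 103 CPM in contralateral libraries, which overlapped (log2 fold change -0.50, SE 0.26, adjusted p = 0.158). Its log2 fold changes were -2.17 and -1.33 in the wild-type and the floxed arm, and the difference was 1.23 (SE 0.41, adjusted p = 0.049), a call lost without any 1 of 16 of the 24 libraries. Sdhb, a subunit of succinate dehydrogenase, fell by 1.07 and Uqcrc1 of the cytochrome bc1 complex by 0.75 on the log2 scale. The falls became 19 of fatty acid oxidation without injured library 3 and 5 without contralateral library 2 or 4, and 5 of the respiratory chain without injured or contralateral library 1 and 6 without contralateral library 2 or 7 without contralateral library 4. In the test between arms 13 of the 24 and 14 of the 19 genes had a higher value here, and none a lower one. Both counts were 2 without injured library 3. Without injured library 2 they were 5 and 4, and without contralateral library 2 6 and 5. Without contralateral library 4 they were 6 and 2. Against the wild-type arm alone they were 10 and 1, and against the floxed arm alone 5 and 5.

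Beyond the proximal tubule, all 8 distal convoluted tubule genes fell, by 0.41 (the magnesium channel Trpm6) to 1.34 (the calcium-binding Pvalb) on the log2 scale. Slc12a3, the thiazide-sensitive transporter, had 986, 944, 1256 and 623 CPM in injured and 1675, 1471, 1622 and 1824 CPM in contralateral libraries, without overlap. The count of falls was 4 without injured library 1. Of 9 loop of Henle genes 2 rose and 2 fell, shares near the 21.2% and 17.6% of all genes. The growth factor Egf fell by 1.01 and the claudin Cldn10 by 0.57, while Cldn16, which carries magnesium between cells, rose by 0.90 and the prostaglandin receptor Ptger3 by 0.44 (log2). Umod, the main urinary protein, did not pass the test (-0.29). The loop counts were 1 to 3 rises and 1 to 2 falls without any 1 of the libraries. Of 14 collecting duct genes 6 rose and 2 fell, against the same 21.2% and 17.6% of all genes. Aqp2, the vasopressin-regulated water channel, had 235, 196, 164 and 169.9 CPM in injured and 91.2, 83.6, 61.6 and 64.3 CPM in contralateral libraries (log2 fold change 1.18, SE 0.16, adjusted p = 0.00228). The groups did not overlap, while in the wild-type arm injured kidneys spread over 16.9 to 336 CPM and contralateral ones over 54.8 to 135 CPM. Aqp4 fell by 1.21 and the vasopressin receptor Avpr2 by 0.72 on the log2 scale. With all 24 libraries in 1 fit 1 collecting duct gene rose and 0 fell.

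Endothelial genes fell in 12 of 16 cases and none rose. Their median log2 fold change was -0.54, against 0.02 in the wild-type arm and -0.04 in the floxed arm without tamoxifen. Kdr, the main VEGF receptor, had 47.0, 51.9, 67.0 and 45.3 CPM in injured and 109, 142, 127 and 145 CPM in contralateral libraries (log2 fold change -1.46, SE 0.17, adjusted p = 0.00167). Esm1, a proteoglycan of endothelial tip cells, had 3.55, 6.36, 14.0 and 5.72 CPM in injured and 26.4, 37.1, 32.1 and 38.6 CPM in contralateral libraries (log2 fold change -2.30, SE 0.40, adjusted p = 0.00516). Neither gene overlapped between groups. Esm1 had log2 fold changes of -2.47 and -2.61 in the intact arms, and its difference of 0.22 did not pass the test. Cdh5 (-0.21), Vwf (0.27), Esam (0.12) and Cldn5 (-0.20) did not pass the injury test. Pecam1, Ehd3, Eng and Cldn5 had lower values here than in the intact arms, 4 of the 16, a count that was 2 without injured library 1 or 3 or contralateral library 1, 2 or 4. Against the wild-type arm alone it was 2 and against the floxed arm alone 1. The falls numbered 10 to 12 without any 1 of the libraries of this arm.

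Of 9 podocyte genes 2 rose, a share near the 21.2% of all genes: the actin regulator Synpo and the phosphatase Ptpro, by 0.57 and 0.62 (log2). Wt1, a transcription factor of these cells, had 14.3, 14.1, 10.0 and 19.6 CPM in injured and 8.88, 11, 8.46 and 9.79 CPM in contralateral libraries, with overlap, and did not pass the test (0.43). Its log2 fold changes were 1.48 and 1.75 in the wild-type and the floxed arm, and the difference was -1.20 (SE 0.26, adjusted p = 0.0104). In all 5 of the 9 had a smaller value in this arm, and 1 without injured library 3 or against the wild-type arm alone. The 2 rises became 5 without that library and 1 without injured library 1, 2 or 4 or contralateral library 1, 2 or 4. Ptpro lost its call without each of those 6 libraries and with the replicate block.

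Early response and heat shock genes rose in 15 of 16 cases, with a median log2 fold change of 1.65, against 1.01 in each intact arm. Atf3, a stress-induced transcription factor, had 21.6, 20.5, 10.7 and 36.4 CPM in injured and 1.16, 3.04, 0.335 and 1.68 CPM in contralateral libraries (log2 fold change 3.65, SE 0.54). The chaperone gene Hspa1b had 109, 72.1, 88.8 and 104 CPM in injured and 18.2, 21.8, 15.5 and 11 CPM in contralateral libraries (log2 fold change 2.32, SE 0.20, adjusted p = 0.000547). Neither overlapped. Hspa1a and Hspa1b are near copies whose counts could be split between them. Both, with the transcription factor Myc and the survival gene Ier3, had larger changes in this arm, 4 of the 16, with differences of 1.66, 1.70, 1.05 and 1.43 (log2). Fosb, with a log2 fold change of -0.07, did not pass the injury test. Without any 1 of the libraries 11 to 15 of the list rose, and the 4 differences were 2 without injured library 2 or contralateral library 2, 3 or 4. Differences also numbered 2 against the wild-type arm alone and 2 against the floxed arm alone.

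By the naming rule the steepest rises without overlap between groups included those of Gabrp, Muc4, Cxcl2, Serpina3f, Ccl8, Nr4a3, Igfbp2, Pdcd1 and Wnt10a, from 7.90 to 4.90 (log2). Muc4, a membrane mucin, had 28.6, 12.7, 3.01 and 24 CPM in injured and 0, 0.0855, 0.0956 and 0.0886 CPM in contralateral libraries (log2 fold change 7.70, SE 0.86). Nr4a3, an orphan nuclear receptor, had 36.7, 31.6, 22.9 and 45.6 CPM in injured and 1.03, 0.642, 0.287 and 0.620 CPM in contralateral libraries (log2 fold change 5.52, SE 0.31). Pdcd1, the T cell checkpoint receptor PD-1, rose by 4.98 (log2), the Wnt ligand Wnt10a by 4.90 and Igfbp2, which binds insulin-like growth factors, by 5.40. Ccl8, a chemokine of monocytes, had 1.53 to 29.8 CPM in injured and 0 to 0.239 CPM in contralateral libraries, with injured library 4 far above the other 3.

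The steepest falls without overlap were shallower, from -2.44 to -1.71 (log2), and belonged to Csrnp3, Esm1, Nuak2, Igf2bp1, Cyp2d12, Igfbp3, Hcar1, Clec2h, Lrrc66 and Tmem26. Nuak2, a kinase related to AMPK, had 31.5, 29.5, 99.0 and 34.9 CPM in injured and 204, 188, 183 and 212 CPM in contralateral libraries (log2 fold change -2.13, SE 0.42, adjusted p = 0.00714). Igfbp3, the main carrier of insulin-like growth factors in blood, had 48.7, 54.0, 128 and 57.2 CPM in injured and 252, 252, 223 and 229 CPM in contralateral libraries (log2 fold change -1.86, SE 0.33). In both, injured library 3 lay between the other injured libraries and the contralateral ones. Of the 10, Hcar1, the lactate receptor, differed between arms (-1.5, log2, adjusted p = 0.0369), and the other 9 did not pass that test.

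Set beside the intact arms, most injury changes kept their direction. In the wild-type arm 68% of 16218 genes changed (35.2% rose and 32.8% fell), and in the floxed arm without tamoxifen 52.7% of 15986 (26.3% rose and 26.5% fell). Of 3745 genes that rose in both, 2155 (57.5%) also rose in the labelled Ihh-deleted arm, 65.2% of its 3304 risen genes, and 3407 of the 3520 tested there had a log2 fold change above 0. The median over these genes was 0.79 in this arm, against 1.55 in the wild-type and 1.47 in the floxed arm. These genes were chosen by their calls in the intact arms, which favours larger values there, so the medians are not an even comparison. Of 3873 genes that fell in both, 1952 (50.4%) also fell here, 71.2% of the 2743 fallen ones, and 3653 of the 3868 tested had a log2 fold change below 0. Their medians were -0.42 here, against -0.91 and -0.99, and the same limit holds for them. Among genes tested in each arm, 484 rose and 382 fell here and were called in neither intact arm. The difference itself passed the test for 110 of the 484 and 70 of the 382.

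**Figure D4:**
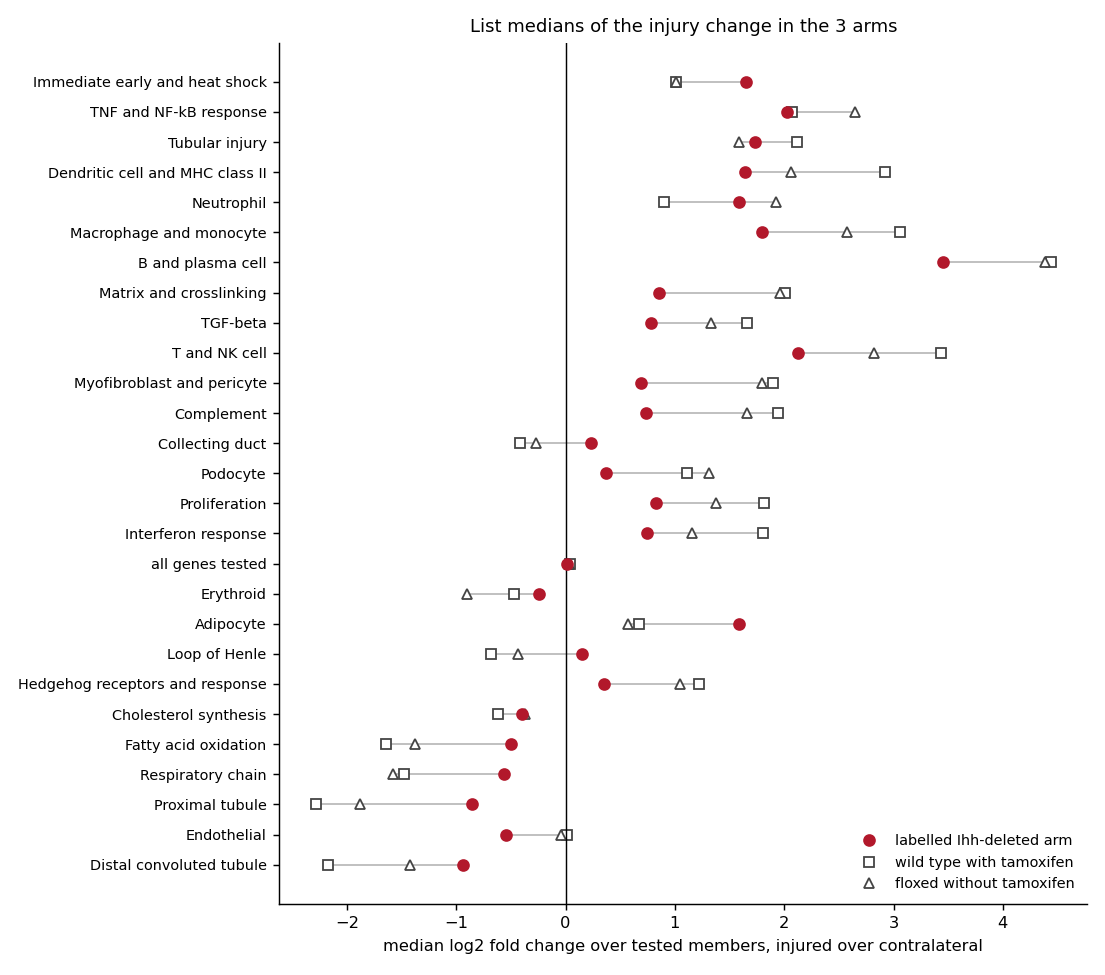
Median log2 fold change, injured over contralateral, over the tested members of each gene list in the labelled Ihh-deleted arm, the wild-type arm and the floxed arm without tamoxifen. The TNF and NF-kB median was 2.02 here and 2.07 and 2.65 in the intact arms, and the matrix median 0.86 here and 2.00 and 1.96 there.

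The test of the difference, the log2 fold change here minus the mean of both intact arms, called 2419 of 16989 genes (14.2%), 1437 higher (8.46%) and 982 lower (5.78%). Of genes that rose in both intact arms 667 had a lower log2 fold change here and 20 a higher one, and 212 of the 667 themselves rose here. Of genes that fell in both 1043 had a log2 fold change here that was higher, that is a smaller fall, none or a rise, and 1 had a lower one, and 226 of the 1043 themselves fell here. Choosing genes by their calls in the intact arms favours such splits, so they are not an even comparison of the arms. Of the genes that fell in both intact arms 12 rose here. The count depended on which libraries entered. It was 1528, 916, 634 and 4602 without injured libraries 1, 2, 3 and 4, and 1245, 1336 and 888 without contralateral libraries 2, 3 and 4. It was 1392 without injured library 1 of the wild-type arm and 3736 without injured library 3 of the floxed arm. Against the wild-type arm alone it was 1476 and against the floxed arm alone 781. The part of the uneven injured libraries in these differences was not tested.

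The genes with the largest differences showed separate patterns. Plk3, a stress-activated kinase, had 189.8, 275, 61.0 and 195 CPM in injured and 8.10, 11.7, 5.12 and 11.1 CPM in contralateral libraries (log2 fold change 4.15, SE 0.44). It had 56.9 to 214 CPM in injured and 5.67 to 11 CPM in contralateral floxed kidneys without tamoxifen, but 7.08 to 10.3 CPM in injured and 5.06 to 13.1 CPM in contralateral wild-type kidneys. Its difference was 4.5 from the wild-type arm (adjusted p = 0.00048) and 0.62 from the floxed arm (adjusted p = 0.489). Nr4a3 had differences of 3.56 and 0.58 in the same order (adjusted p = 0.00571 and 0.574). Thus both genes passed the test against the wild-type arm and not against the floxed arm of the same strain, and whether the 2 intact arms differ in them was not tested. Tmem252, a transmembrane protein, passed it against both, with 4.58 and 1.94 (adjusted p = 0.000395 and 0.0487).

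**Figure D5:**
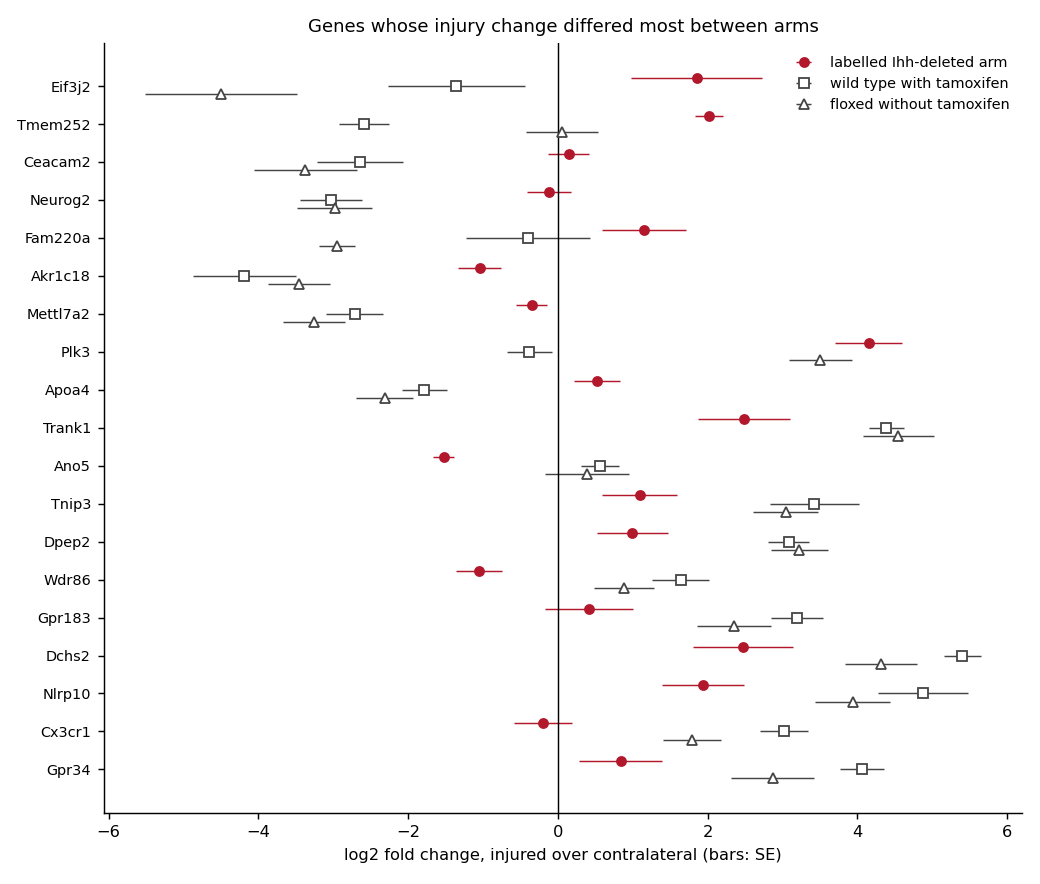
Log2 fold change, injured over contralateral, with SE, of 19 genes among those with the largest differences between arms, in the labelled Ihh-deleted arm, the wild-type arm and the floxed arm without tamoxifen. Plk3 rose in both Pax8creERT2;Ihhfl/fl arms, and Cx3cr1 and Gpr34 rose in both intact arms.

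Other genes differed from the mean of the intact arms with log2 fold changes of the same sign in both. Neurog2, a proneural transcription factor, had 2.64, 3.09, 5.47 and 3.85 CPM in injured and 2.64, 4.53, 3.25 and 4.43 CPM in contralateral libraries (log2 fold change -0.12), against log2 fold changes of -3.03 and -2.98 in the wild-type and the floxed arm (difference 2.85, SE 0.52, adjusted p = 0.00649). Apoa4, an apolipoprotein, had log2 fold changes of 0.52 here and -1.79 and -2.31 in the intact arms, and Mettl7a2 -0.35 here and -2.71 and -3.26 there. Ceacam2, a cell adhesion molecule, had 0.14 here and -2.64 and -3.37 there. Akr1c18, a steroid-metabolising reductase, fell by 1.05 on the log2 scale here, with -4.19 and -3.46 there. On the lower side Ano5, of the anoctamin family, had 2.89, 3.04, 2.54 and 3.03 CPM in injured and 7.64, 7.10, 6.65 and 8.20 CPM in contralateral libraries (log2 fold change -1.53, SE 0.14), without overlap. It did not pass the test in either intact arm (0.56 and 0.39), and the difference was -2.02 (adjusted p = 0.017). Wdr86 fell by 1.05 on the log2 scale here, with 1.64 and 0.88 there. Gpr34, Gpr183, Nlrp10, Dchs2, Dpep2, Tnip3 and Trank1 rose in both intact arms and had log2 fold changes of 0.41 to 2.49 here. Eif3j2 and Fam220a, which also had large differences, are uncertain: Eif3j2 is a near copy of Eif3j1 and Fam220a is annotated under 2 gene IDs.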

How the data were processed

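Bulk RNA-seq of mouse kidney was deposited as 1 table of 32 libraries. The authors deposited expected counts per transcript: per the submitters' processing notes Salmon 1.4 and GRCm38 were named, and no source used here names the index or options. Of positive values 83.2% were not whole. Counts were summed to 33714 genes with GENCODE M21 (552 of 105833 transcripts, holding 0.185% of the counts, were not found) and rounded. Overlapping and near-identical genes may share counts. No column was unused, and single-cell files were not used here.

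The 4 numbered columns of each group were taken as 4 libraries. Any 2 libraries of a group differed by a chi-square of at least 23.7 per gene, so none was counted as a repeat. Each arm's 8 libraries were fitted with edgeR 4.0.16 (R 4.3.3; TMM factors, filterByExpr, quasi-likelihood test, adjusted p under 0.05), and the difference between arms was an interaction over 24 libraries. The SE is the log2 fold change over the square root of F. Ihh was tested with SciPy 1.17.1. Scripts used Python 3.11.15 with pandas 2.3.3, and the code was tested on simulated data. Library totals of 20955952 to 26801055 counts limit the precision of genes near 1 CPM. Alternatives were the replicate block, DESeq2 1.42.0, RLE factors, no low-count filter, wider fits and leaving out each library.

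Named genes were a fixed set of Hedgehog, injury and matrix genes, the 10 protein-coding genes per direction with the largest log2 change without overlap (mean log2 CPM of at least 1), the 10 per direction with the largest difference between arms, and the 4 members of each list with the largest change. Genes beyond that rule illustrate their list and were chosen after their values were seen. Members and lists were chosen with earlier results of these data known. A few genes that the rule names are not reported here.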

Additional observations from a re-analysis of the deposited data

Results flagged for a closer look

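Within the 4 libraries of a group, 1 library stood apart from the other 3 by more than chance gives in about 5% of groups, in 30 of 322 groups of libraries looked at (the gap to the nearest library over the range was above Dixon's critical value for groups of 4). Injured library 1 stood high in Tnnt2 (4.62 CPM). Injured library 3 stood high in Nuak2 (99.0 CPM), Igf2bp1 (7.88 CPM), Igfbp3 (128 CPM), Clec2h (38.7 CPM), Tmem26 (22.2 CPM) and Akr1c18 (6.15 CPM). Injured library 4 stood high in Ccl8 (29.8 CPM), Ccr7 (8.15 CPM), Cd2 (11 CPM), Cd4 (20.9 CPM), Cd3g (8.26 CPM), Cd3e (16.6 CPM), Ighg3 (67.5 CPM), Ighg2b (1757 CPM), Ighg2c (1249.6 CPM), Ighm (6409.8 CPM), Mki67 (73.8 CPM) and Top2a (56.7 CPM). Hhip was highest in contralateral library 4 (0.487 CPM), Cx3cr1 was lowest in contralateral library 2 (5.82 CPM), Muc4 was lowest in contralateral library 1 (0 CPM), Eif3j2 was lowest in injured library 1 (3.79 CPM) and Fam220a was highest in contralateral library 3 (12.8 CPM). Gpr161 was lowest in injured library 3 (2.71 CPM), Cyp4b1 was lowest in contralateral library 3 (3228 CPM), Egf was highest in contralateral library 3 (2509 CPM), Plin1 was highest in contralateral library 4 (8.42 CPM), Adipoq was highest in contralateral library 4 (11 CPM) and Cidec was highest in contralateral library 4 (7.71 CPM). The B and plasma cell genes and the T cell genes of injured library 4 are among those values.

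The injury change differed between the labelled Ihh-deleted arm and the mean of the intact arms, by the interaction test in edgeR, in 37 of the named genes (values are differences in log2 fold change). It was higher in this arm for Eif3j2 (4.76), Tmem252 (3.26), Ceacam2 (3.14), Neurog2 (2.85), Fam220a (2.80), Akr1c18 (2.75), Mettl7a2 (2.61), Plk3 (2.56), Apoa4 (2.55), Nr4a3 (2.07), Hspa1b (1.70), Pvalb (1.69), Ppara (1.23), Hmgcs1 (0.97) and Uqcrfs1 (0.94). It was lower in this arm for Gpr34 (-2.64), Cx3cr1 (-2.61), Nlrp10 (-2.48), Dchs2 (-2.40), Gpr183 (-2.39), Wdr86 (-2.33), Dpep2 (-2.18), Tnip3 (-2.16), Ano5 (-2.02), Trank1 (-2.0), Trem2 (-2.0), Col1a1 (-1.74), Mmp2 (-1.52), Dhh (-1.5), Hcar1 (-1.5), Inhba (-1.22), Wt1 (-1.20), Gli3 (-1.20), Ptpro (-1.08), Synpo (-0.93), Eng (-0.86) and Cdon (-0.81). Higher values include smaller falls, and lower values include smaller rises. Some of the 161 named genes were chosen because their difference between arms was among the largest. The count of 37 is thus partly set by that choice. It is not an even comparison with the 14.2% called among all 16989 genes.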

How the results depend on the processing

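Without any 1 of its 8 libraries the injury test of the labelled Ihh-deleted arm called 3963 genes (without injured library 1) to 7865 genes (without injured library 3). It called 6116 with RLE factors, 5616 without the low-count filter, 7096 by DESeq2, 5752 with 24 libraries in the fit and 2360 with all 32. A heart profile was carried by 3 of the 32, and without these the count was 5955, an alternative chosen after seeing the data. Without 1 library the wild-type arm gave 10215 to 10934 calls and the floxed arm without tamoxifen 6675 to 8981. The difference between arms gave 634 calls without injured library 3 to 4602 calls without injured library 4, 1476 against the wild-type arm alone, 781 against the floxed arm alone, 1645 without the low-count filter and 3694 by DESeq2. The Ihh difference ranged over -4.92 to -0.334 CPM without 1 library and was -0.392 on the log2(CPM + 1) scale (exact permutation p = 0.543). The cause of these shifts was not tested.

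Replicate numbers are shared between groups, but the labels do not say that they mark the same mouse. The correlation of same-numbered deviations was 0.146, 0.0570, -0.0702 and 0.0555 in the labelled Ihh-deleted arm, and 1 of its 4 injured libraries correlated best with its own number. In the wild-type arm all 4 did (0.04, 0.23, 0.20 and 0.20), and in the floxed arm without tamoxifen injured library 3 alone did (0.19). A pairing by number, which the main fits do not use, is thus not settled for the wild-type arm. With the replicate block the injury test called 5062 genes, the other arms 10618 (wild-type) and 7262 (floxed), and the difference between arms 1750. The block lost the injury calls of Gli1, Ptpro, Ccr7, Mki67, Top2a, Gbp2, Ifit1 and Ddx3y and the difference calls of Dhh, Col1a1 and Ppara. It turned the log2 change of Shh to -0.00384 and the difference of Ihh to 0.00363. Under the block the difference was followed in 34 of the named genes only, so other difference calls are not covered here.

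The injury log2 change of these genes, none of them called, turned sign without 1 library, and ranged over -0.263 to 0.575 for Shh, -0.701 to 0.0224 for Cx3cr1, -0.0362 to 0.378 for Ceacam2, -0.434 to 0.0296 for Neurog2, -0.229 to 0.703 for Gpr183, -0.527 to 0.0146 for Hba-a1, -0.556 to 0.0195 for Hba-a2, -0.176 to 0.0177 for Eif2s3y and -0.0223 to 0.109 for Kdm5d. The difference between arms did so for Ihh, over -0.517 to 0.326, and for Hhip, over -1.55 to 0.597. Leaving out 1 library lost injury calls of 26 of the named genes. It lost difference calls of 11 of the 34 named genes whose difference was followed, and other difference calls are not covered by that count. Rises of TNF, tubular injury and macrophage genes stayed in the majority of each list under every library left out.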

Other observations

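Complement genes rose in 5 of 10 cases and fell in 1, against 21.2% and 17.6% of all genes tested. C3, the central component, had 247, 185, 55.8 and 496 CPM in injured and 38, 22.2, 31.3 and 34.9 CPM in contralateral libraries (log2 fold change 2.74), with no overlap between groups. The anaphylatoxin receptor C5ar1 rose by 2.13 (log2) and the inhibitor Serping1 by 1.31, while factor B (Cfb) fell by 0.74 on the log2 scale. The protease C1s1 did not pass the injury test (0.66), and its change was smaller than in the intact arms (difference -1.34, adjusted p = 0.0416). No complement gene had a lower value in that test without injured library 1, 2 or 3 or contralateral library 2 or 4, or against the floxed arm alone.

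Interferon-response genes rose in 4 of 15 cases and fell in 2, shares near the 21.2% and 17.6% of all genes tested. The rises became 1 without injured library 1, 2 or 4 or with the replicate block, 0 without any 1 of the contralateral libraries and 11 without injured library 3. The sensor Zbp1 rose by 2.12 (log2), and the antiviral gene Rsad2 fell by 0.90 on the log2 scale. Ifi44 fell by 0.59, with a difference between arms of -0.97 (adjusted p = 0.0238), where no gene of the list passed without injured library 1 or 3 or contralateral library 4, or against the floxed arm alone. Proliferation genes rose in 4 of 21 cases, a share near the 21.2% of all genes. The count was 2 without contralateral library 2, 3 or 4, 10 without injured library 3 and 1 with the replicate block. Mki67, a marker of cycling cells, had 17.0, 14.3, 8.77 and 73.8 CPM in injured and 6.03, 4.15, 5.02 and 2.92 CPM in contralateral libraries (log2 fold change 2.42), with injured library 4 the highest, a call lost with the replicate block (adjusted p = 0.0518). Cholesterol synthesis genes fell in 2 of 11 cases, near the 17.6% of all genes, and 1 to 4 fell without any 1 of the libraries. Of the list 3, Hmgcs1, Sqle and Cyp51, had higher values here than in the intact arms (differences 0.97, 0.81 and 1.31), a count that was 1 without injured library 2 or 3 and against the floxed arm alone.

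All 4 tested urothelial genes rose, from 1.69 for Upk1a to 3.18 for Krt5 (log2), and the list summed to 22.2, 16.1, 5.21 and 13.8 CPM in injured and 2.48, 4.62, 1.10 and 2.30 CPM in contralateral libraries. The rises were 3 without injured library 1 or 2, and 2 of 5 tested with 24 libraries in the fit. In the wild-type arm 4 rose and in the floxed arm without tamoxifen 0. Adipocyte genes summed to 69.8, 156, 12.8 and 40.0 CPM in injured and 19.4, 14.6, 14.2 and 46.0 CPM in contralateral libraries, and none of 5 passed the injury test. Erythroid genes summed to 985, 642, 409 and 308 CPM in injured and 1215, 457, 947 and 686 CPM in contralateral libraries, and none of 5 passed. Of the heart muscle list Tnnt2 alone was tested, and it rose by 1.76 (log2). No skeletal muscle gene was tested, and of the adrenal cortex list Star alone was, without passing (0.79). Of 4 tested sex-linked genes Ddx3y passed the test (0.31, log2) and the others did not, and its call was lost without injured library 2, 3 or 4 or contralateral library 1, 2 or 3, with the replicate block and with 24 libraries in the fit.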
